A study of Mus musculus with 4 samples.

Results

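The genes described here are the alpha-globins *Hba-a1* and *Hba-a2* together with 7 genes that handle heme and iron (*Alas1*, *Fech*, *Hmox1*, *Blvrb*, *Fth1*, *Ftl1* and *Tfrc*) and *Bpgm*, an enzyme gene of red cell metabolism. They are 10 of the 56748 gene IDs in the count files, found by Ensembl ID and symbol. The group was selected on the counts of *Hba-a1*, which is read in myoblasts and is lower in the knockdown, so the change of *Hba-a1* is given below as a description with no test. C2C12 is an established mouse myoblast line, labelled wild type. Its cells received plasmids with either a mix of 3 shRNAs against *Hnrnpl*, which codes for a splicing regulator, or a scrambled shRNA. Both groups share the transfection, an eGFP reporter on the plasmid, the choice of eGFP-expressing clones, puromycin selection and growth in DMEM with 10% serum, so an untreated group is not part of the comparison. RNA was sequenced directly on nanopore flow cells, in 2 libraries per group, which the labels number 1 and 2. This number is used here as the batch, so each batch holds 1 scrambled and 1 knockdown library. The 2 libraries of a group are passages of 1 selected line, so the difference between lines and the effect of the shRNAs cannot be told apart here, and p-values measure the spread between passages.

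Hemoglobin carries heme, an iron-holding ring, in alpha and beta chains, and both chains are made in bulk by red cell precursors. Other cells make some heme for their own enzymes: *Alas1* codes for the first, rate-limiting enzyme outside red cells and *Fech* for the last, which puts iron into the ring. Heme oxygenase 1, from *Hmox1*, opens the ring to biliverdin and frees its iron, and *Blvrb* codes for one of the biliverdin reductases. Cells take up iron through the transferrin receptor (*Tfrc*) and store it in ferritin, built of heavy (*Fth1*) and light (*Ftl1*) chains. *Bpgm* makes 2,3-bisphosphoglycerate, which loosens the hold of hemoglobin on oxygen in red cells. Iron also acts on these mRNAs through iron-responsive elements, short hairpins bound by the iron regulatory proteins when iron is low. Binding at the start of a ferritin mRNA blocks its translation, whereas binding at the end of the *Tfrc* mRNA protects it from decay.

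A search for such hairpins was made in the untranslated ends of the annotated main transcripts, as a C, any 5 bases, the loop CAGTGN and 5 bases that pair with the first 5, with G-T pairs allowed. It found 1 in the 5′UTR of *Fth1*, 1 in the 5′UTR of *Ftl1* and 4 in the 3′UTR of *Tfrc*, and none in the other 7 genes. Among all protein-coding genes, 0.117% of 20510 5′UTRs and 0.6% of 20670 3′UTRs held a match. The hairpins are shown because they separate the genes whose mRNA level can follow iron (*Tfrc*) from those where iron acts on translation (*Fth1*, *Ftl1*), which read counts do not measure. Each is given 5′ to 3′ on the strand of the gene with the loop in capitals, in GRCm39.
*Fth1*, chr19:9960096-9960124, forward strand: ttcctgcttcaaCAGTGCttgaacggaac
*Ftl1*, chr7:45109203-45109231, reverse strand: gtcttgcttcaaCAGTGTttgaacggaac
*Tfrc* element 1, chr16:32450037-32450065, forward strand: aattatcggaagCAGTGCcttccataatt
*Tfrc* element 2, chr16:32450416-32450444, forward strand: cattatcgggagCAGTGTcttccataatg
*Tfrc* element 3, chr16:32450481-32450509, forward strand: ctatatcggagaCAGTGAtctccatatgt
*Tfrc* element 4, chr16:32450528-32450556, forward strand: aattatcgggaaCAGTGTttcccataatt

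The reads assigned to genes numbered 1229424 to 1676911 per library. Levels are given as CPM, the counts per 1000000 such reads, and the limit of a count of 0 (3 reads) stands at 1.79 to 2.44 CPM. This limit and the Poisson intervals below cover counting error only. *Hnrnpl* itself was counted 358 and 656 times in scrambled 1 and 2 and 242 and 258 times in knockdown 1 and 2, and fell by 0.78 on the log2 scale (SE 0.18, adjusted p = 0.0112, edgeR). Without scrambled 2 its adjusted p was 0.194 and without knockdown 1 it was 0.150. Of the 8670 genes tested, 5.95% passed at an adjusted p under 0.05, 2.51% higher and 3.44% lower in knockdown, and the median log2 fold change was 0.00. With 2 libraries against 2, the smallest p of an exact permutation test is 0.333, so all tests come from the fit across genes. Median log2 fold changes differed between chromosomes, from -0.37 on chromosome 9 to 0.30 on chromosome 16 among the autosomes. The chromosome's median is given beside each gene of the heme and iron lists whose call changed when the medians were taken out, and what sets the medians was not tested. Among myoblast markers, *Myf5* was counted 157, 190, 158 and 113 times in scrambled 1, scrambled 2, knockdown 1 and knockdown 2, whereas *Myod1*, a defining gene of this line, had 1 read in all and *Myog*, *Pax7* and *Pax3* had 0. A count near 0 in these files therefore does not show that a gene is silent.

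*Hba-a1* was counted in all libraries and was lower in both knockdown libraries, while *Hba-a2* and the beta-globins were close to 0. The counts on *Hba-a1* (ENSMUSG00000069919, chromosome 11 from 32233186 to 32234504, forward strand) were 645 (scrambled 1), 516 (scrambled 2), 226 (knockdown 1) and 179 (knockdown 2). After scaling by library size with TMM factors these were 477 and 306 CPM against 159 and 148 CPM, with means of 392 ± 121 and 153 ± 7.88 CPM (SD, n = 2). Every scrambled value lay above every knockdown value, and the groups did not overlap for 52.4% of all genes tested. The scrambled libraries were farther apart than the knockdown libraries. The fitted ratio of knockdown to scrambled was 0.393, a log2 fold change of -1.35 (SE 0.18). Within batch 1 the log2 ratio was -1.58 and within batch 2 it was -1.05. It lay between -1.64 and -0.999 when single libraries were left out, and the median of chromosome 11 was -0.11. The group was selected on this fall, so these values describe it and do not test it. In RNA from a whole culture, fewer cells with the transcript and less of it per cell cannot be told apart.

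**Figure D1:**
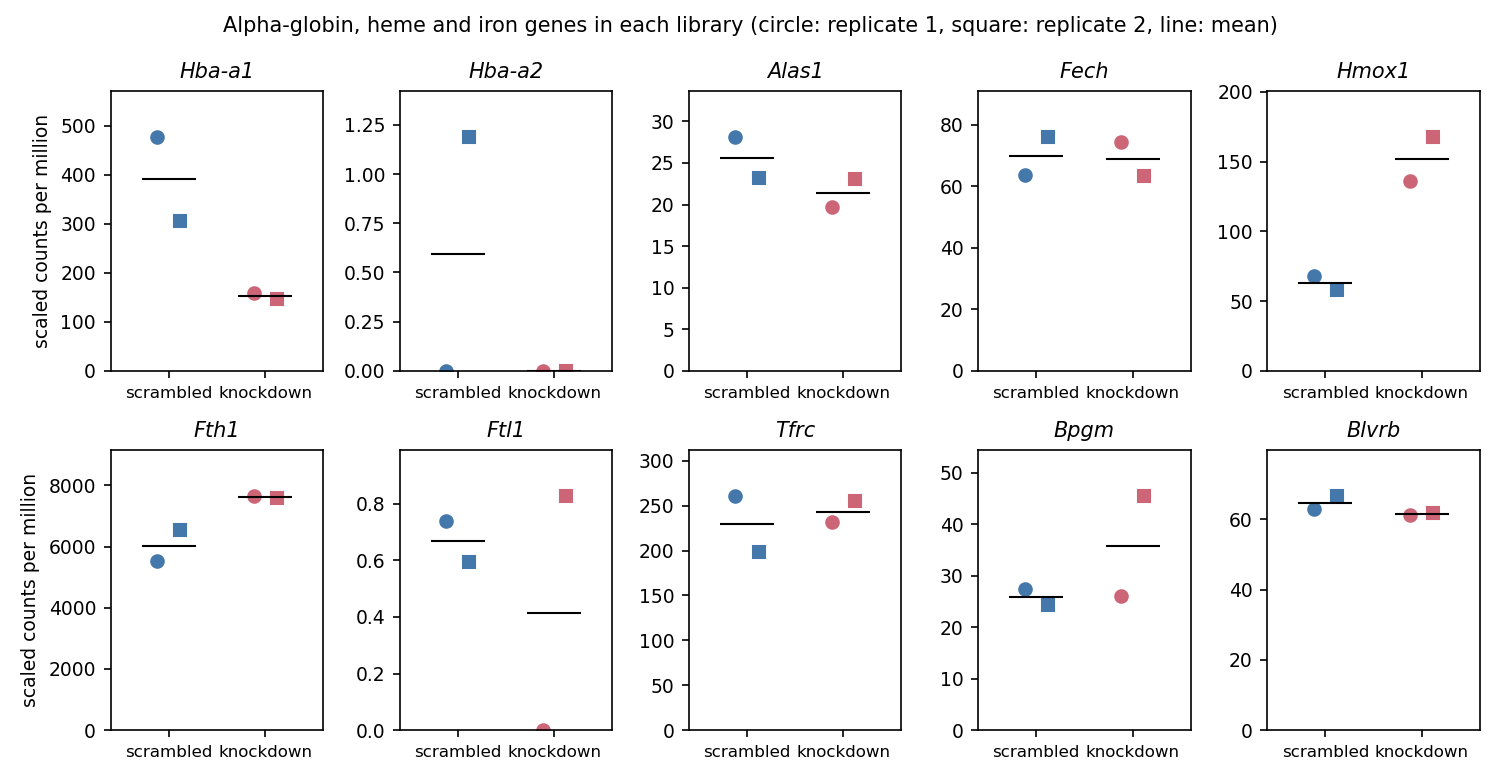
Scaled CPM (vertical axes, each from 0) of the 10 genes in scrambled and knockdown libraries, 1 panel per gene. Circles are replicate 1, squares replicate 2 and lines the group means. *Hba-a1* lies at 477 and 306 CPM in scrambled and at 159 and 148 in knockdown, *Hmox1* at 68.0 and 58.2 against 136 and 167, and *Hba-a2* and *Ftl1* rest on at most 2 reads in a library.

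*Hba-a2* (ENSMUSG00000069917, chromosome 11 from 32246168 to 32247320, forward strand) had 0 and 2 reads in scrambled and none in knockdown. Summed over each group this is 2 reads against 0, for which the 95% Poisson interval reaches up to 3.69 reads in knockdown. Both groups are at or under the limit, so no fold is given. How the reads divide between the 2 alpha-globins is uncertain, because their transcripts are nearly the same. Their coding sequences are both 426 bases long and differ by 1 substitution, C381T, which names the base of *Hba-a1*, its position counted from the A of the start codon and the base of *Hba-a2*. The whole 647-base *Hba-a2* transcript matches *Hba-a1* with 1 difference, an identity of 99.8%. The 30 bases around that position in exon 3 are shown because they are where a read can tell one coding sequence from the other, with the differing base in capitals, both on the forward strand of GRCm39.
*Hba-a1*, chr11:32234329-32234358: catgcctctctggaCaaattccttgcctct
*Hba-a2*, chr11:32247146-32247175: catgcctctctggaTaaattccttgcctct

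The error-free *Hba-a1* transcript was placed by minimap2 at its own gene with a mapping quality of 20, and that of *Hba-a2* with 22, against 60 for each of the other 8 genes. In the files, 22.7% to 23.8% of all reads are listed as mapped with too low a quality, and how many of these came from either alpha-globin gene was not tested. The same near-identity runs upstream: the 300-base RefSeq windows around the starts of the 2 genes (GRCm38.p6) share a run of 297 identical bases. The counts of *Hba-a1* are thus counts of reads that were given to *Hba-a1*.

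No other globin had more than 3 reads over the 4 libraries. *Hba-x*, the embryonic alpha chain, and the beta-globins *Hbb-bt*, *Hbb-bs*, *Hbb-bh2* and *Hbb-y* had 0 reads in every library, and *Hbb-bh1* had 1 read. The 12 globin genes without *Hba-a1*, among them myoglobin, cytoglobin and neuroglobin, summed to 1, 5, 0 and 2 reads in scrambled 1, scrambled 2, knockdown 1 and knockdown 2. Counts on markers of red cell precursors were as low, and the limit stated above for counts near 0 holds for them too. The 18 erythroid markers followed here summed to 6, 6, 2 and 4 reads in the same order, or 4.43, 3.56, 1.41 and 3.30 CPM after scaling. Of these markers, 12 were at 0 in every library, among them *Gata1*, the leading erythroid transcription factor, *Slc4a1*, the anion exchanger of red cells, and *Nfe2*, and none had over 6 reads in all. *Alas2*, the red cell form of the first heme enzyme, had 1 read in each scrambled library and 0 in knockdown. The 10 white blood cell markers summed to 4, 5, 4 and 7 reads and the 8 endothelial markers to 0, 1, 1 and 1. None of the 3 lists had a gene that entered the test.

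None of the tested genes next to the alpha-globin cluster passed, against 5.95% of all genes tested. The list of neighbours holds 13 genes, of which 12 lie on chromosome 11 between 32137541 and 33113267 and *Polr3k*, listed for its place in other mammals, lies on chromosome 2. Of these, 8 were tested, 2 above and 6 below 0, with log2 fold changes from -0.71 (*Sh3pxd2b*, adjusted p = 0.125) to 0.60 (*Stk10*, adjusted p = 0.340) and a median of -0.16 that includes *Polr3k* (-0.03). The gene *Nprl3*, whose introns hold the main alpha-globin enhancers, had 5, 7, 11 and 6 reads in scrambled 1, scrambled 2, knockdown 1 and knockdown 2 and was not tested. Among 8669 other tested genes, the 3 whose centred log2 CPM over the 4 libraries lay closest to that of *Hba-a1* were *Gm11223* (Euclidean distance 0.137), *Elf1* (0.158) and *Col1a2* (0.164). Of these *Col1a2*, a collagen I chain, had the most reads, 409 and 345 in scrambled and 154 and 105 in knockdown, while *Gm11223* and *Elf1* had at most 26 in a library.

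*Hmox1* rose, and it was the only one of the 7 tested genes besides *Hba-a1* to pass, 1 higher and 0 lower, against 2.51% and 3.44% of all genes tested. Those 7 genes had an unadjusted p under 0.05 in 2 cases, *Hmox1* and *Fth1*, against 21.8% of all genes tested, and *Hba-a2* and *Ftl1* were too low to be tested. For 4 of the 7, *Alas1*, *Hmox1*, *Fth1* and *Blvrb*, the scaled values of the groups did not overlap, against 52.4% of all genes tested. *Hmox1* (ENSMUSG00000005413, chromosome 8 from 75820241 to 75827217, forward strand) was counted 92 and 98 times in scrambled and 194 and 203 times in knockdown. In scaled counts this was 68.0 and 58.2 against 136 and 167 CPM, with means of 63.1 ± 6.95 and 152 ± 22.0 CPM (SD, n = 2). Both knockdown libraries lay above both scrambled ones. The log2 fold change was 1.27 (SE 0.17, adjusted p = 0.000182, edgeR), a mean 140.8% higher, with log2 ratios of 0.99 in batch 1 and 1.503 in batch 2. Under all 12 alternatives the adjusted p stayed under 0.05, between 2.69e-09 and 0.00164, and the log2 fold change lay between 1.12 and 1.41. The genes closest to *Hmox1* over the 4 libraries were *Sh3bp5* (distance 0.0655), *Pcdh18* (0.142) and *Npnt* (0.157), of which *Npnt* had the most reads, 27 and 29 in scrambled and 55 and 54 in knockdown.

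**Figure D2:**
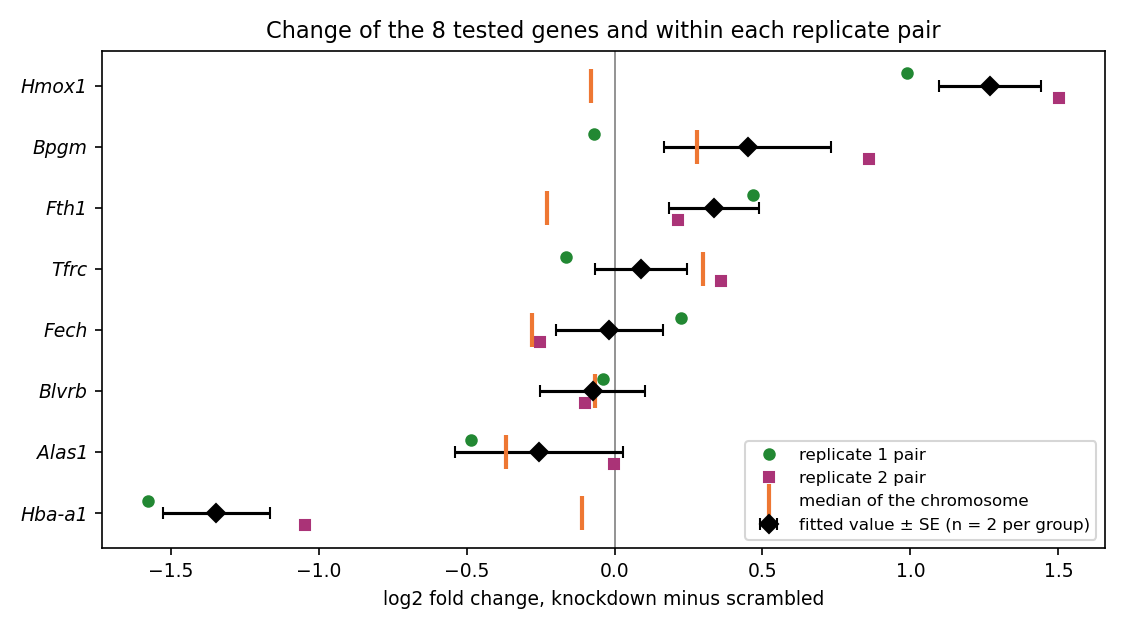
Log2 fold change, knockdown minus scrambled, of the 8 genes that entered the fit. Diamonds with bars are the fitted value and its standard error (n = 2 per group), circles and squares the ratios within batches 1 and 2, and orange marks the median of the gene's chromosome. *Hmox1* (1.27) and *Hba-a1* (-1.35) lie farthest from 0, and the batches lie on both sides of 0 for *Fech*, *Tfrc* and *Bpgm*.

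The ferritin chains differed in depth. *Fth1* (chromosome 19 from 9957911 to 9962462, forward strand) took 0.538% and 0.657% of counted reads in scrambled and 0.790% and 0.748% in knockdown. It was counted 7461 and 11018 times in scrambled against 10866 and 9197 times in knockdown, or 5515 and 6540 against 7635 and 7586 CPM after scaling. The scaled groups did not overlap, with means of 6027 ± 725 and 7611 ± 34.4 CPM (SD, n = 2), but *Fth1* did not pass the test (log2 fold change 0.34, SE 0.15, adjusted p = 0.199, edgeR). Its adjusted p ranged from 0.0122 to 0.654 over 12 alternatives and was under 0.05 in 2 of them, with no filter on low counts (0.0122) and with the chromosome medians removed (0.0437), the median of chromosome 19 being -0.23. Its log2 fold change was 0.57 with the chromosome medians removed and 0.22 without scrambled 1. *Ftl1* (chromosome 7 from 45107367 to 45109308, reverse strand) had 1 read in each library except knockdown 1, where it had 0. In the annotation the small RNA gene *Gm56125* lies within exon 4, the last, of *Ftl1* on the same strand, and the *Ftl1* transcript also aligns to 5 other places in the genome at up to 99.57% identity. The files list 15.97% to 16.54% of all reads as ambiguous, which is to say on more than 1 gene, and whether *Ftl1* reads are among them was not tested. The 15 other genes and pseudogenes named for ferritin held 1 read in all, so the level of the light chain is not known from these counts.

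*Tfrc*, with its 4 hairpins, did not pass the test. The transferrin receptor gene (chromosome 16 from 32427556 to 32451612, forward strand) was counted 352 and 334 times in scrambled and 330 and 309 times in knockdown, or 260 and 198 against 232 and 255 CPM after scaling. The groups overlapped, and the log2 fold change was 0.09 (SE 0.16, adjusted p = 0.785, edgeR), with -0.17 in batch 1 and 0.36 in batch 2. With the chromosome medians removed it was -0.21, and without scrambled 2 it was -0.10.

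The enzymes at both ends of heme synthesis did not pass either. *Alas1* (chromosome 9 from 106110642 to 106135734, reverse strand) had 38 and 39 reads in scrambled and 28 and 28 in knockdown, or 28.1 and 23.1 against 19.7 and 23.1 CPM. The highest knockdown value lay just under the lowest scrambled one, and the log2 fold change was -0.26 (SE 0.28, adjusted p = 0.649, edgeR). With the chromosome medians removed it was 0.11, the median of chromosome 9 being -0.37. *Fech* (chromosome 18 from 64585985 to 64623322, reverse strand) had 86 and 128 reads in scrambled against 106 and 77 in knockdown. Its log2 fold change was -0.02 (SE 0.18, adjusted p = 0.970, edgeR). It was higher in knockdown in batch 1 (0.22) and lower in batch 2 (-0.25), and the sign turned with the settings.

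*Blvrb* (chromosome 7 from 27147275 to 27165569, forward strand) had 85 and 112 reads in scrambled and 87 and 75 in knockdown, or 62.8 and 66.5 against 61.1 and 61.9 CPM, and a log2 fold change of -0.07 (SE 0.18, adjusted p = 0.853, edgeR). *Bpgm* (chromosome 6 from 34453142 to 34484029, forward strand) had 37 and 41 reads in scrambled and 37 and 55 in knockdown. Only knockdown 2, at 45.4 CPM, lay apart from the other libraries, which were between 24.3 and 27.3 CPM, and the log2 fold change was 0.45 (SE 0.28, adjusted p = 0.370, edgeR). Without knockdown 2 it was 0.01.

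Beyond these genes, 8 lists followed the pathways around heme and iron. Their 96 genes other than the 10 above gave 71 tested genes, of which 11 rose and 1 fell, 16.9% of those tested against 5.95% of all genes tested. With the globin genes and the alpha-globin neighbours added (8 of them tested besides *Hba-a1*, none past the threshold), the 10 lists gave 79 tested genes and 15.2%. The lists were drawn up with earlier results of these data known, so these shares are descriptions. Over the 10 lists, the count of higher genes was 6 and 4 in DESeq2 with the local and the parametric fit. It was 5 with the chromosome medians removed and 12 with 10 or more counts in each library. Leaving out scrambled 2, knockdown 1 or knockdown 2 gave 7, 6 and 7.

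Of 14 tested genes of heme synthesis, 1 rose, none fell and 13 did not pass. The share that passed, 7.14%, was close to the 5.95% of all genes tested, and the list median was 0.02. The one that rose was *Cpox*, which codes for an oxidase late in the pathway. *Cpox* was counted 44 and 73 times in scrambled and 99 and 86 times in knockdown (log2 fold change 0.87, SE 0.20, adjusted p = 0.0133, edgeR). It passed in 7 of 12 alternatives, with adjusted p from 0.00302 to 0.333. It did not pass without scrambled 1 (adjusted p = 0.0866), without knockdown 1 (0.0782) or with the chromosome medians removed (0.149), the median of chromosome 16 being 0.30. *Uros* had a higher log2 fold change, 0.96, with 14, 22, 41 and 20 reads in scrambled 1, scrambled 2, knockdown 1 and knockdown 2 and an adjusted p of 0.115.

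The list median for heme breakdown and transport was 0.37. Of its 10 tested genes 3 rose and none fell, against 2.51% higher and 3.44% lower of all genes tested. Besides *Hmox1* these were *Slc48a1*, which moves heme out of lysosomes, and *Flvcr1*, described as a heme exporter and as a choline transporter. *Slc48a1* was counted 152 and 198 times in scrambled and 319 and 266 times in knockdown (log2 fold change 0.95, SE 0.15, adjusted p = 0.000709, edgeR), and it passed under all 12 alternatives, with adjusted p up to 0.0127. *Flvcr1* was counted 43 and 45 times against 74 and 67 (log2 fold change 0.88, SE 0.22, adjusted p = 0.0230, edgeR) and passed in 6 of 12, with adjusted p from 0.00967 to 0.485. It did not pass without scrambled 2 (0.143), knockdown 1 (0.0788) or knockdown 2 (0.0705), or with the chromosome medians removed (0.107), the median of chromosome 1 being 0.19. *Blvra*, the main biliverdin reductase, did not pass (0.31, adjusted p = 0.361), nor did *Bach1*, the heme-binding repressor of *Hmox1* (0.44, adjusted p = 0.460). The lowest values of the list were those of *Slc46a1*, a carrier of folate and heme (-0.88, adjusted p = 0.170), and *Hebp2* (-0.66, adjusted p = 0.242), which did not pass.

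**Figure D3:**
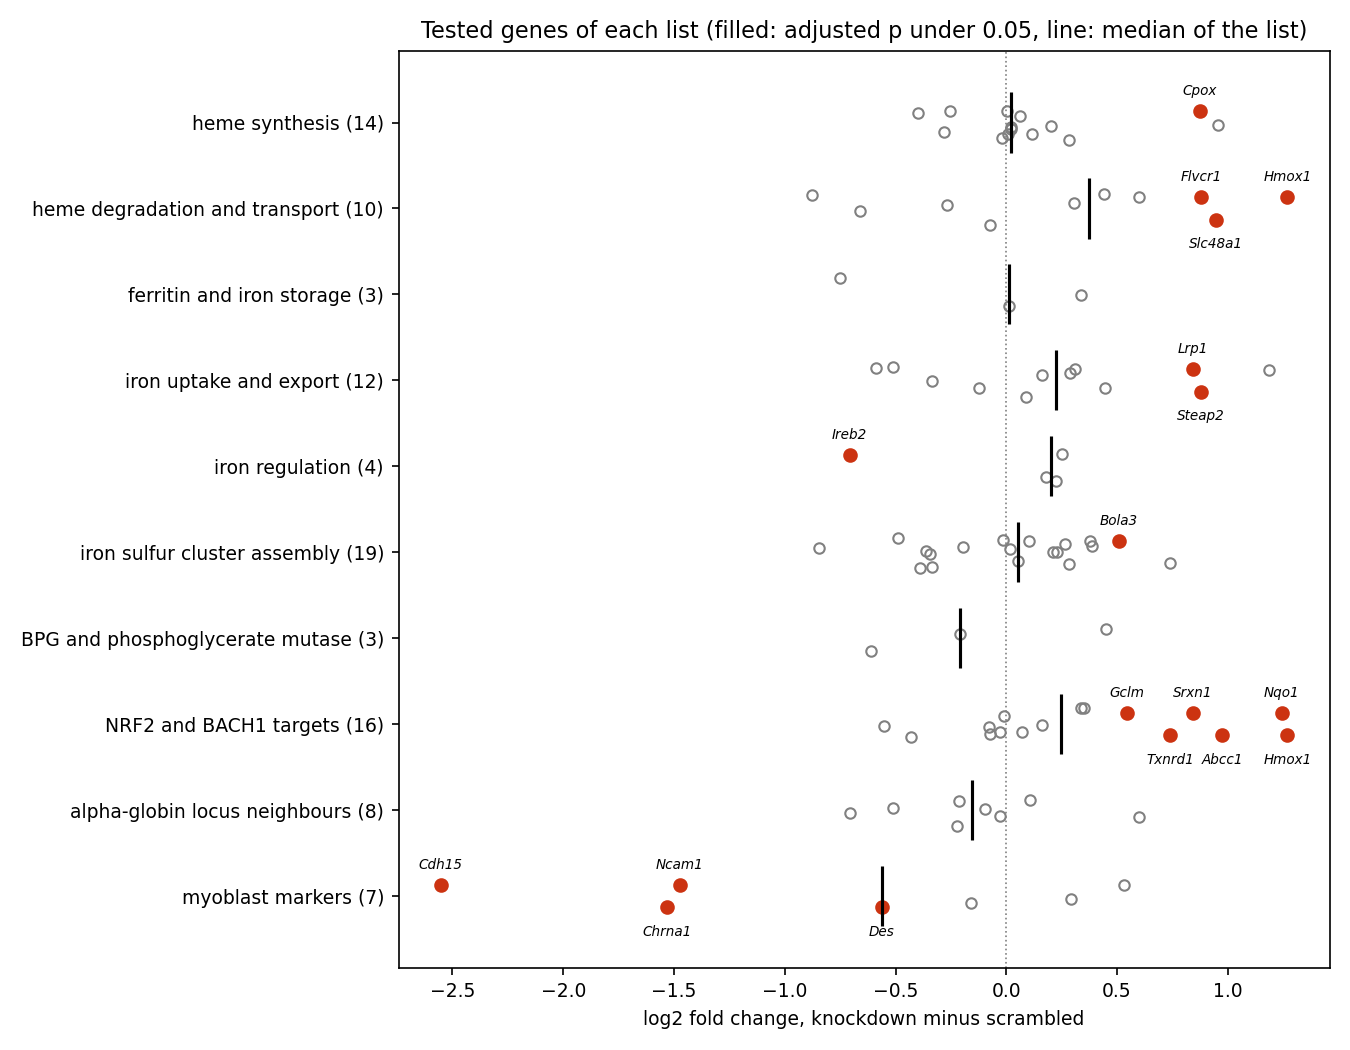
Log2 fold change, knockdown minus scrambled, of the tested genes of 8 heme and iron lists, the alpha-globin neighbours and the myoblast markers, with the number tested in brackets. Filled and named points passed at an adjusted p under 0.05, open points did not, and vertical lines are list medians. Of 16 NRF2 and BACH1 targets 6 were filled, all above 0, and the filled myoblast markers all lay below 0.

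Of 12 tested genes of iron uptake and export, 2 rose and none fell, 16.7% against 2.51% of all genes tested that were higher. The list median was 0.22. *Steap2*, which codes for a metal reductase, was counted 123 and 131 times in scrambled and 249 and 161 times in knockdown (log2 fold change 0.88, SE 0.17, adjusted p = 0.00459, edgeR), with an adjusted p of 0.0985 without knockdown 1. *Lrp1*, a receptor that also takes up heme bound to hemopexin, was counted 146 and 181 times against 307 and 205 (log2 fold change 0.84, SE 0.16, adjusted p = 0.00364, edgeR), with an adjusted p of 0.0788 without knockdown 1. Their adjusted p lay between 8.25e-05 and 0.0985 for *Steap2*, under 0.05 in 10 of 12 alternatives, and between 7.27e-05 and 0.0788 for *Lrp1*, in 11 of 12. The oxidase gene *Cp* had a higher value, 1.19, and did not pass (adjusted p = 0.0552, edgeR). It had 16, 17, 45 and 21 reads in scrambled 1, scrambled 2, knockdown 1 and knockdown 2. Among the alternatives that kept every library, *Cp* passed in edgeR with no filter on low counts (adjusted p = 0.0136) and with 10 or more counts in each library (0.0400). Its log2 fold change was 1.29 without scrambled 1 and 1.53 without knockdown 2. The lowest values were those of *Mcoln1*, a lysosomal channel that releases iron (-0.59, adjusted p = 0.196), and *Slc25a28*, a mitochondrial iron carrier (-0.51, adjusted p = 0.198), which did not pass either. The iron exporter *Slc40a1* had at most 3 reads in a library.

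Of 4 tested genes of iron regulation, *Ireb2* fell and the other 3 did not pass, 25.0% against 3.44% of all genes tested that were lower. *Ireb2* codes for iron regulatory protein 2, one of the proteins that bind the hairpins shown above. It was counted 82 and 121 times in scrambled against 53 and 54 times in knockdown, lower in both knockdown libraries (log2 fold change -0.71, SE 0.20, adjusted p = 0.0421, edgeR). It passed in 5 of 12 alternatives, with adjusted p from 0.0238 to 0.618. It did not pass without scrambled 2 (0.246), knockdown 1 (0.241) or knockdown 2 (0.0572), and once the chromosome medians were taken out it had -0.34 on the log2 scale (adjusted p = 0.475), the median of chromosome 9 being -0.37. *Aco1*, for iron regulatory protein 1, had a log2 fold change of 0.23 (adjusted p = 0.609).

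Iron-sulfur clusters are the other main use of iron in mitochondria. Of 19 tested genes of their assembly, 1 rose, none fell and 18 did not pass. The share that passed, 5.26%, was close to the 5.95% of all genes tested, and the list median was 0.05. The gene that rose was *Bola3*, which codes for a factor that helps to pass finished clusters on. It was counted 181 and 228 times against 262 and 241 (log2 fold change 0.51, SE 0.15, adjusted p = 0.0490, edgeR) and passed in 2 of 12 alternatives, with adjusted p from 0.0399 to 0.523. With the chromosome medians removed its log2 fold change was 0.23 (adjusted p = 0.523), the median of chromosome 6 being 0.28, and with the batch as a block its adjusted p was 0.0749. The adjusted p was between 0.119 and 0.198 without any 1 of scrambled 1, scrambled 2, knockdown 1 and knockdown 2.

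Of 3 tested genes of iron storage and of 3 that make or use bisphosphoglycerate and its relatives, none passed. Of all genes tested 5.95% passed, and the list medians were 0.01 and -0.21. *Pgam1*, for the phosphoglycerate mutase of glycolysis, had the lowest value of the second list (-0.61, adjusted p = 0.0588, edgeR). It is named after its values were seen. It passed in 2 of 12 alternatives, with an adjusted p of 0.0484 with no filter on low counts and 0.0266 without scrambled 1, and the highest of the 12 was 0.673. *Pcbp2*, an iron chaperone that delivers to ferritin and also binds RNA, had a log2 fold change of -0.75 (adjusted p = 0.0926). *Ncoa4*, the receptor that sends ferritin to lysosomes, had 4 to 9 reads in a library and was not tested.

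*Hmox1*, *Blvrb*, *Fth1* and *Ftl1* are also known targets of the transcription factor NRF2 and its rival BACH1, which bind the same sites. Of 16 tested genes of a list of such targets, 6 rose and none fell, 37.5% against 2.51% of all genes tested that were higher, and the list median was 0.25. *Nqo1*, a quinone reductase, had the largest change after *Hmox1* and was counted 70 and 168 times in scrambled and 232 and 245 times in knockdown. Its log2 fold change was 1.24 (SE 0.22, adjusted p = 0.00169, edgeR), and the scrambled libraries were 51.7 and 99.7 CPM, far apart from each other but both below knockdown (163 and 202 CPM). It passed in 11 of 12 alternatives, with adjusted p from 1.73e-10 to 0.164, and leaving out scrambled 1 and scrambled 2 gave log2 fold changes of 0.87 and 1.81.

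The other targets that rose serve the thioredoxin and glutathione systems and export. *Txnrd1*, for thioredoxin reductase 1, had a log2 fold change of 0.74 (SE 0.14, adjusted p = 0.00394, edgeR), with 237 and 302 reads in scrambled and 399 and 378 in knockdown. It was 0.50 (adjusted p = 0.0605) with the chromosome medians removed, the only 1 of 12 alternatives in which it did not pass, and the median of chromosome 10 was 0.24. *Srxn1*, for sulfiredoxin, had 0.84 (adjusted p = 0.00842) and 0.55 (adjusted p = 0.110) without knockdown 2, with adjusted p from 0.000201 to 0.110. *Abcc1*, an exporter of glutathione conjugates, had 0.97 (adjusted p = 0.00912), with an adjusted p of 0.0844 without scrambled 2, 0.0766 without knockdown 2 and a range from 0.000210 to 0.215. With the chromosome medians removed it was 0.68 (adjusted p = 0.0960), the median of chromosome 16 being 0.30. *Gclm*, a subunit of the first enzyme of glutathione synthesis, had 0.54 (adjusted p = 0.0371). Its adjusted p was 0.0558 with the batch as a block, 0.104 without scrambled 1, 0.158 without scrambled 2 and 0.218 without knockdown 2, over a range from 0.0186 to 0.330. With the chromosome medians removed it was 0.45 (adjusted p = 0.125), the median of chromosome 3 being 0.10. The catalytic subunit *Gclc* had -0.01 (adjusted p = 0.985), and the other tested targets that did not pass lay between -0.55 (*Tkt*) and 0.35 (*G6pdx*).

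Some myoblast markers fell in the same comparison. Of 14 markers, 7 were tested, of which 4 fell and none rose, against 3.44% lower and 2.51% higher of all genes tested. The list median was -0.56. *Cdh15*, for M-cadherin, was counted 113 and 152 times in scrambled and 25 and 14 times in knockdown (log2 fold change -2.55, adjusted p = 2.03e-06, edgeR). *Chrna1* (-1.53, adjusted p = 3.40e-05), *Ncam1* (-1.47, adjusted p = 0.00231) and *Des* (-0.56, adjusted p = 0.0308) fell as well, while *Myf5* (-0.16, adjusted p = 0.615), *Vcam1* (0.29, adjusted p = 0.707) and *Met* (0.53, adjusted p = 0.0599) did not pass. The call on *Ncam1* was lost in the DESeq2 parametric fit (adjusted p = 0.0770), 1 of its 12 alternatives. The call on *Des* was lost there too (0.208), with the batch as a block (adjusted p = 0.0526) and without scrambled 2 (0.297), knockdown 1 (0.0970) or knockdown 2 (0.117). Summed over the list, the markers were at 802 and 922 CPM in scrambled against 568 and 519.7 CPM in knockdown after scaling. Their part in the changes of *Hba-a1* and *Hmox1* was not tested.

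**Figure D4:**
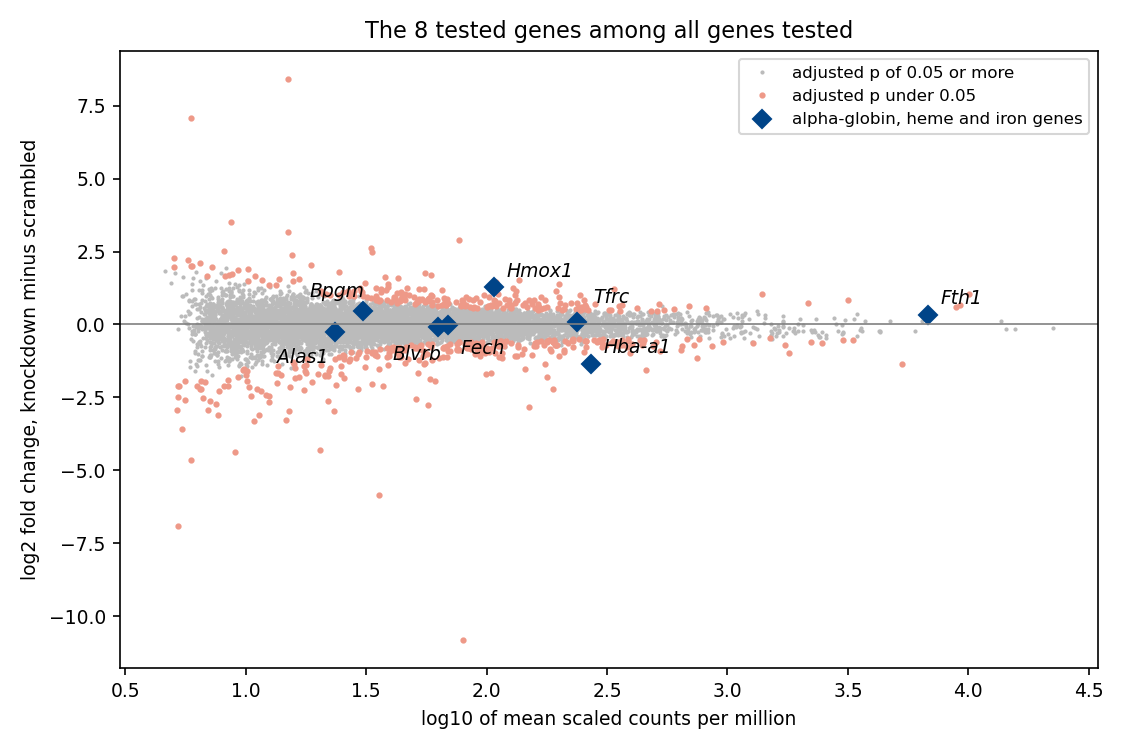
Log2 fold change, knockdown minus scrambled (vertical axis), against the log10 of the mean scaled CPM (horizontal axis) for the 8670 genes tested. Blue diamonds are the 8 genes described here that entered the fit, and red points passed at an adjusted p under 0.05. *Hmox1* lies at 1.27 and *Hba-a1*, on whose change the group was selected, at -1.35, while *Fth1*, at 6027 and 7611 CPM, lies among the most counted genes, close to 0 at 0.34.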

How the data were processed

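The authors sequenced direct RNA on nanopore flow cells, used minimap2 2.17 to place the reads on GRCm39, and obtained gene counts from HTSeq 0.9.1. They deposited whole read counts per gene without normalization, and the annotation release and strand setting are not given in the sources used here. Rows of unassigned reads were left out of library sizes. Of 56748 gene IDs, 56017 were matched to GENCODE vM39. Knockdown and scrambled were compared in edgeR 4.0.16 (R 4.3.3) with TMM factors, filterByExpr and the quasi-likelihood test with Benjamini-Hochberg adjustment over 8670 genes. CPM are counts per 1000000 counted reads, scaled by TMM, and ratios within a batch use a prior count of 2 on scaled counts. The lists' symbols *Ahsp* and *Hrg1* were not matched in the files, and some genes of the lists are not reported here.

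The genes and lists were chosen with earlier results of these data known. Named are the 10 genes, list genes with an adjusted p under 0.05, *Hnrnpl*, and the 3 genes closest to *Hba-a1* and to *Hmox1* (log2 CPM, prior count 2). Any further gene in the text was picked with its values in view. The replicate number of the labels was used as the batch, so it pairs the libraries. Deviations of scrambled 1 and knockdown 1 from their group means had r = -0.02 over 5963 genes. Alternatives were factors by RLE or upper quartile, all genes with a count or those with 10 or more in each library, DESeq2 1.42.0 (Wald test, local or parametric fit), the batch as a block, chromosome medians removed, and each library left out. Transcripts were placed with minimap2 2.31.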

Additional observations from a re-analysis of the deposited data

How the results depend on the processing

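*Hmox1* kept its direction and its call under every alternative tried. Besides *Hba-a1*, the genes that passed higher were 1, and 2 with no filter on low counts and with the chromosome medians removed, when *Fth1* joined. None passed lower under any alternative. Genes of the pathway lists that rose were 11, but 6 and 4 in DESeq2 with the local and parametric fit, 5 with the chromosome medians removed and 6 to 9 when single libraries were left out. The 1 that fell, *Ireb2*, was joined by *Pgam1* to make 2 with no filter on low counts and without scrambled 1, while 0 fell with upper quartile factors, in both DESeq2 fits and with the chromosome medians removed, and 0 to 2 when single libraries were left out. With 10 or more counts in each library 12 rose, *Cp* being added. With no filter on low counts 11 rose, with *Cp* in and *Bola3* out. With the batch as a replicate block, 9 rose and 1 fell, *Bola3* and *Gclm* being lost. Among the other genes named with a test, *Des* alone lost its call in the block. *Hnrnpl* fell by 0.76 in the block (adjusted p = 0.00652, edgeR), had -0.78 in the DESeq2 parametric fit (adjusted p = 0.0567), and lay between -1.03 and -0.48 when single libraries were left out. Signs turned for *Alas1* (0.11 with the chromosome medians removed), *Fech* (0.0041 with upper quartile factors, 0.26 with the chromosome medians removed, -0.14 to 0.12 without single libraries) and *Tfrc* (-0.21 with the chromosome medians removed, -0.10 to 0.29 without single libraries). With mitochondrial genes left out of the library size, knockdown means were 167 CPM for *Hba-a1*, 8273 for *Fth1*, 264 for *Tfrc* and 66.8 for *Blvrb*, and the scrambled mean of *Blvrb* was 67.8. With no factors they were 7693 for *Fth1* and 62.1 for *Blvrb* in knockdown. Apart from the alternatives' own construction the cause was not tested. *Hba-a2* and *Ftl1*, with 2 and 3 reads in all, are too low for any comparison at this depth.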

Other observations

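Many genes of the lists had few reads, and some of them have exons that overlap another gene annotated in GENCODE vM39, mostly on the opposite strand. Of the 18 erythroid markers, all with under 10 reads, 6 have an exon that overlaps another gene on either strand and 12 do not. Among the 14 myoblast markers, 6 had under 10 reads, of which 2 (*Myog* and *Msc*) have such an overlap, and *Myod1*, with 1 read, does not. In the heme synthesis list the 3 genes with under 10 reads (*Abcb6*, *Abcb10* and *Alas2*) all have one, as do 7 of the 14 genes with 10 or more. In these lists *Abcb6* alone has an overlap on its own strand (*Gm29253*), and the other overlaps lie on the opposite strand. Which of the overlapping genes were in the annotation used for counting was not tested. The reads of the list genes were not analysed here.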
